A study of Homo sapiens with 4 samples.

Results

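The zinc finger genes of chromosome 19 were taken as all genes of the expression table that lie on chromosome 19 and whose symbol is ZNF followed by digits and at most 1 letter. The rule found 222 of the 28283 genes listed. A further 254 genes with such a symbol lie on other chromosomes, and 1625 other genes of the table lie on chromosome 19. RNA-seq and m6A-seq were performed on A549, a human lung adenocarcinoma cell line. The knockdown cells carried a stable lentiviral shRNA against YTHDF2 (shY2-2), and the control cells carried the vector control (shNC). YTHDF2 is a cytoplasmic reader that binds N6-methyladenosine (m6A) in RNA and promotes the decay of the bound transcript. From each of these, poly(A) RNA was fragmented and sequenced once as input and once after precipitation with an m6A antibody (IP), which made 4 libraries. Both conditions are the same cell line in the same medium, the knockdown rests on a single shRNA, and with no replicates the differences describe these libraries, without p-values.

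Most proteins encoded by these genes are transcription factors that read DNA with an array of C2H2 zinc fingers, each finger held together by a zinc ion and joined to the next by a short conserved linker. Many also carry a KRAB domain, which recruits the co-repressor TRIM28 and, through it, the histone methyltransferase SETDB1, so that heterochromatin is laid down where the fingers bind. The family grew by repeated tandem duplication, which left dense clusters of related genes on chromosome 19, and many of its members silence retrotransposons.

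The label was checked against the reference annotation (GENCODE release 44). All 222 members were found there, 214 with a coding transcript. The other 8 have none, and 7 of those have a symbol that ends in P, the mark of a pseudogene. Every one of the 214 coding sequences held at least 1 C2H2 finger by its pattern of cysteines and histidines, with a median of 12 fingers and a range of 1 to 36, 2693 in all. In 211 of the 214 genes the whole finger array was encoded by 1 exon. A KRAB box was recognised by pattern in 183 coding members and not in 31. The pattern misses divergent boxes, such as those of ZNF473 and ZNF446.

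The sequences that the m6A results below turn on come from the surroundings of the stop codon, the 3′ UTR further on and the linkers between fingers. Among peaks that overlapped between the conditions, those with the highest enrichment in shNC lay at the stop codon of ZNF784 and in the 3′ UTR of ZNF329. The first 3 sequences show the single GGAC site of the ZNF329 overlap and, of the 4 in ZNF784, those nearest to the stop codon on either side. GGAC, the core letters most used by the m6A writer complex, is in capitals. The other 3 are linkers covered by peaks of both conditions. In these the capitals mark AAACC, a weaker form of the same consensus within the codons of the linker residues TGEKP. All are written 5′ to 3′ on the transcript strand from GRCh38 and GENCODE release 44.
ZNF784, coding end, chr19:55621796-55621822, - strand: tgtggggtaggGGACcctgcggaggag
ZNF784, 3′ UTR, chr19:55621723-55621749, - strand: ctgcagaccagGGACatgggttagtta
ZNF329, 3′ UTR, chr19:58127022-58127048, - strand: aataatgctgaGGACtcgttgcaggag
ZNF57, linker in the coding sequence, chr19:2917690-2917716, + strand: acgcacactggagagAAACCttatgag
ZNF146, linker in the coding sequence, chr19:36236717-36236743, + strand: attcacactggagaaAAACCttttgag
ZNF331, linker in the coding sequence, chr19:53577182-53577208, + strand: attcatactggtgaaAAACCctatgaa

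YTHDF2, the targeted gene, had an FPKM of 3.56 in shNC and 1.02 in shY2-2. FPKM counts fragments relative to exon length and to all mapped fragments, so levels can be set side by side between genes. The 7 marker genes chosen for A549 cells were all present at an FPKM of at least 1, and none of 6 genes of other cell types or deleted in this line reached 1. The depth behind an FPKM value is unknown.

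Most zinc finger genes of chromosome 19 were at low levels in both conditions. The median FPKM of the 222 members was 0.495 in the shNC library and 0.418 in the shY2-2 library, close to the medians of the whole table (0.438 and 0.403). The higher of the 2 values stayed under 0.1 in 55 members, lay from 0.1 to under 1 in 81 members and from 1 to under 5 in 73, and reached 5 in 13. Thus 86 members (38.7%) reached an FPKM of 1 in either input library and were kept, compared with 176 of the 254 ZNF genes on other chromosomes (69.3%) and 44.4% of the other genes of chromosome 19. The other 136 members stayed below this limit. Over all members, 7 were listed at 0 in the shNC library and 16 in the shY2-2 library, and none in both.

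**Figure D1:**
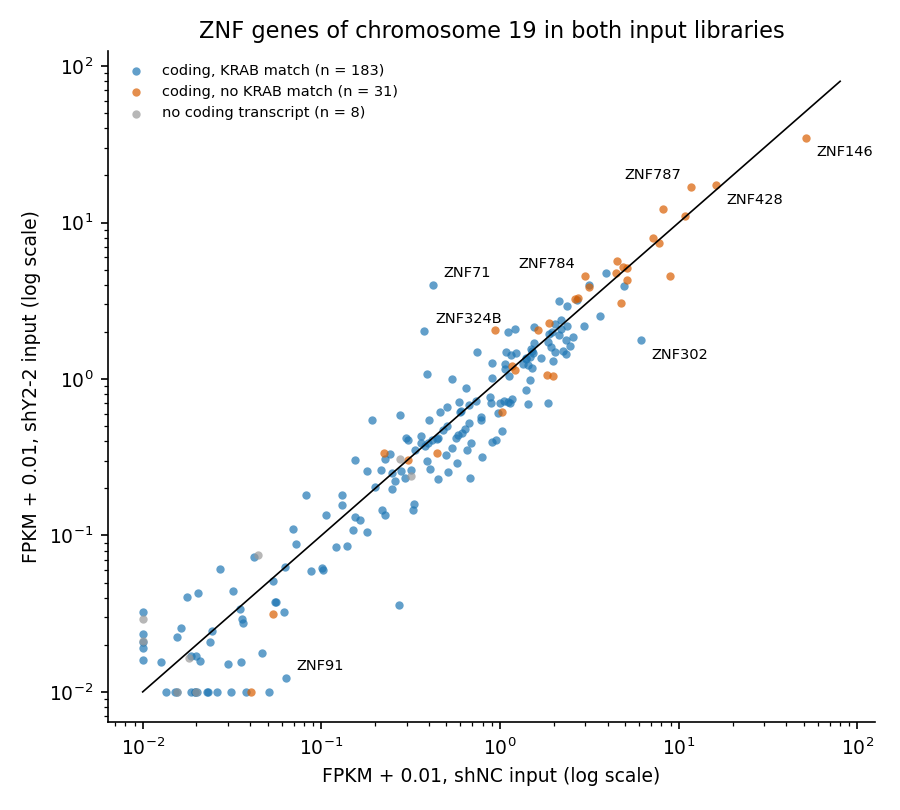
FPKM of the 222 zinc finger genes of chromosome 19 in the shNC input library (x axis) and the shY2-2 input library (y axis), 1 point per gene, both on log axes after adding 0.01. The line marks equal values, and colours separate coding members with a KRAB match (183), coding members without (31) and members with no coding transcript (8). ZNF146 stands at the top with 51.6 and 34.9, ZNF71 and ZNF324B above the line, and ZNF302 below it.

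Level differed between the structural classes. Of the 31 coding members without a KRAB match 26 (83.9%) reached an FPKM of 1, and of the 183 with a match 60 did (32.8%). The median FPKM was 2.99 and 3.29 in the shNC and shY2-2 libraries without a match and 0.431 and 0.395 with it. None of the 8 members with no coding transcript reached 1. Of the 13 members with an FPKM of at least 5 in either library, 12 had no KRAB match, and the remaining one was ZNF302. The members without a match also had fewer fingers (median 9, against 13) and transcripts richer in G and C (median 62.6%, against 42.0%).

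The most abundant member was ZNF146, which encodes a protein made almost only of fingers with no KRAB domain. Its FPKM was 51.6 in shNC and 34.9 in shY2-2. ZNF428 (16.05 and 17.35), ZNF787 (11.7 and 16.8), ZNF574 (10.9 and 11.0) and ZNF581 (8.14 and 12.3) followed, all without a KRAB match. In neither library did another member come near ZNF146, and the other 4 were at or above their shNC level in shY2-2.

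Several members known as repressors were at low levels in both conditions. ZNF91, a repressor of SVA elements, had an FPKM of 0.0536 in shNC and 0.00229 in shY2-2. ZNF93, a repressor of LINE-1 elements, had 0.00867 and 0.00698. ZNF611, which also binds SVA elements, had 0.206 and 0.251. ZNF382, a KRAB repressor, was at 0.00854 in shNC and listed at 0 in shY2-2, and ZNF568, whose mouse counterpart silences a placental promoter of Igf2, had 0.110 and 0.0738. These values are too low for a comparison between the libraries, and ZNF91, ZNF93, ZNF382 and ZNF568 had no m6A peak in either condition, while ZNF611 had 1 in each.

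ZNF274, ZNF224 and ZNF331 were expressed at a few FPKM. ZNF274, which binds the finger-coding ends of other zinc finger genes and brings SETDB1 there, had 2.68 in shNC and 3.17 in shY2-2. ZNF224, a repressor of the aldolase A gene, had 2.03 and 1.48. ZNF331, an imprinted gene, had 1.96 and 1.29. On the log2 scale described next these differences were 0.18, -0.29 and -0.37, within the range in which most members lay.

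The log2 ratio was defined as the base-2 logarithm of (shY2-2 FPKM + 1)/(shNC FPKM + 1) and taken for the 86 members kept. The added 1 shrinks the ratio where FPKM is low, and less RNA per cell cannot be told apart from fewer cells that express a gene. The median log2 ratio of the members was -0.01, with quartiles of -0.30 and 0.20. It was 0.00 over all 12268 genes kept by the same limit, -0.07 over 176 ZNF genes on other chromosomes and 0.15 over 721 other genes of chromosome 19. The 86 members kept were thus split almost evenly, with 41 higher and 45 lower in shY2-2, whereas over all 222 members, most of them with an FPKM under 1, 88 were higher and 134 lower. Of the 721 other genes of chromosome 19 kept, 490 were higher. In 72 of the 86 members (83.7%) the log2 ratio lay within 0.5 of 0.

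Few members passed a doubling or halving on this scale. A log2 ratio above 1 was found in 2 of 86 members (2.33%), where 0.986% of all genes kept passed, and a ratio below -1 in 1 member (1.16%), where 2.14% of all genes kept passed. Shares that rest on 1 or 2 genes do not set the members apart from the table.

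ZNF71, a KRAB gene first found as induced by tumour necrosis factor in endothelial cells, had an FPKM of 0.410 in shNC and 3.96 in shY2-2, a log2 ratio of 1.81. ZNF324B, a KRAB gene with 9 fingers, had 0.367 and 2.02, a log2 ratio of 1.14. Both were kept through the shY2-2 library alone, so they could only enter the comparison as higher. ZNF71 overlaps AC007228.1 on the same strand, which had 0.0133 and 0.157. Of the sequence of ZNF324B 10.9% of all stretches of 100 nt also occur in the transcript of another gene, so reads of these genes cannot be fully separated. The neighbour ZNF324, of the same subfamily, had 0.379 and 1.06.

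ZNF302 was the only member past the limit in the other direction, with an FPKM of 6.11 in shNC and 1.77 in shY2-2 and a log2 ratio of -1.36. It overlaps no other gene, and 1.45% of its stretches of 100 nt are shared. It carried 4 peaks in each condition, described below.

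Among the 8 members that reached an FPKM of 5 in each library the median log2 ratio was 0.06. The highest were ZNF581 (0.54), ZNF787 (0.48) and ZNF526 (0.13, FPKM 7.16 and 7.96). The lowest were ZNF146 (-0.55), ZNF580 (-0.05, FPKM 7.74 and 7.44) and ZNF579 (-0.00, FPKM 5.13 and 5.12). ZNF580 and ZNF581 overlap each other and CCDC106 on the same strand, and how fragments in the shared exons were assigned is not known. In all, 69 members overlap another gene on the same strand and 80 overlap one on the opposite strand, and whether strand was used for FPKM is not given in the sources used here. ZNF146 lies opposite ZNF565 (FPKM 0.866 and 0.752) and ZNF428 opposite SRRM5 (0.249 and 0.396), both far below them in level.

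The members fell into 16 groups along the chromosome when a gap of more than 1 Mb was taken as a boundary. The 6 clusters with at least 20 members held 186 of the 222 genes. Whether members were kept at all differed from cluster to cluster. No member of the 20 from ZNF101 to ZNF208 (chr19:19668796-22010949) reached an FPKM of 1, and only 4 of the 20 from ZNF653 to ZNF791 did. At the other end, 31 of the 59 members from ZNF628 to ZNF446 (chr19:55476332-58481230), the last and largest cluster, and 13 of the 25 from ZNF575 to ZNF296 (chr19:43525497-45076588) reached it.

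**Figure D2:**
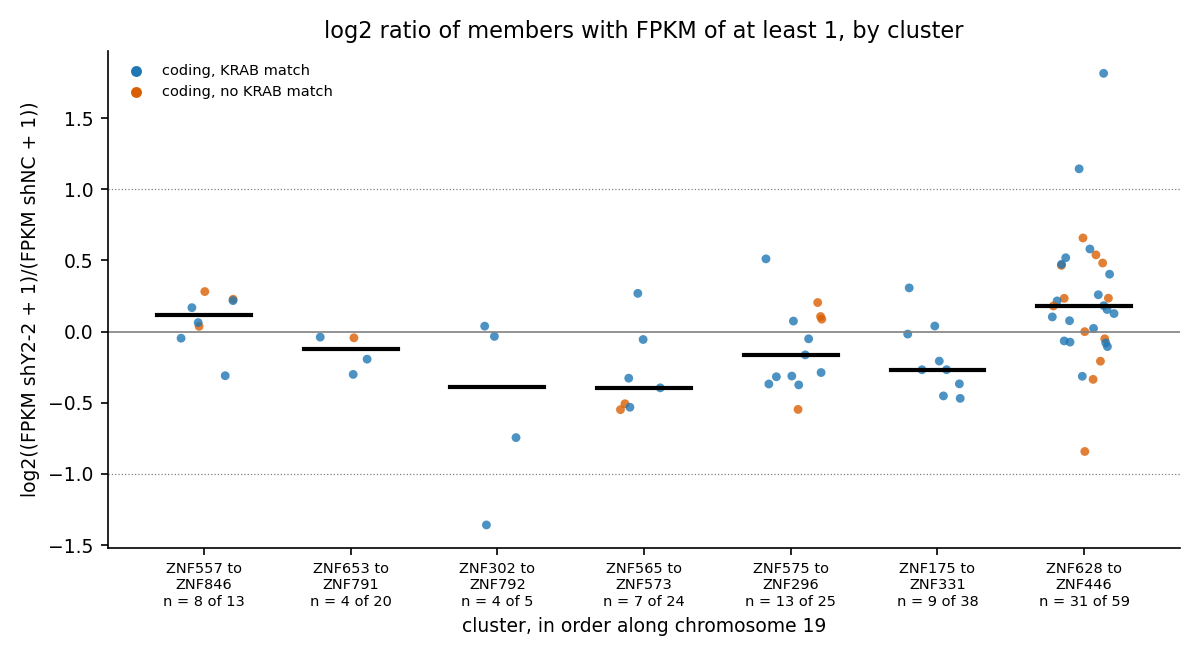
The log2 ratio of shY2-2 over shNC (y axis) for 76 of the 86 zinc finger genes of chromosome 19 that were kept, 1 point per gene, in the 7 clusters with at least 4 such genes in order along the chromosome (x axis). Black bars are medians, dotted lines mark 1 and -1, colours separate KRAB matches from other coding members, and points are spread sideways for legibility. The median is 0.18 in the last cluster (31 genes) and -0.40 in the cluster from ZNF565 to ZNF573 (7 genes).

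Behind the even split of the members kept, clusters differed in direction. In the last cluster 21 of the 31 genes kept were higher in shY2-2, with a median log2 ratio of 0.18. In the cluster from ZNF565 to ZNF573 (chr19:36182060-37817300) 6 of 7 were lower, with a median of -0.40. In the cluster from ZNF175 to ZNF331 (chr19:51571298-53580269) 7 of 9 were lower, with a median of -0.27. The cluster from ZNF575 to ZNF296 had 5 higher and 8 lower (median -0.16), the cluster from ZNF557 to ZNF846 6 higher and 2 lower (median 0.12), and all 4 genes kept from ZNF653 to ZNF791 were lower (median -0.12). From ZNF302 to ZNF792, 3 of the 4 genes kept were lower (median -0.39). Of the 86 members kept, 69 reached an FPKM of 1 in both libraries. The others could only enter in the direction of the library that kept them. In the last cluster ZNF71, ZNF256, ZNF837, ZNF324B and ZNF324 could only be higher and ZNF329 only lower. In the other clusters given here, ZNF564, ZNF181, ZNF461, ZNF569, ZNF230, ZNF226, ZNF112 and ZNF160 could only be lower.

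In the clusters given above, genes outside the ZNF series within the same stretches had medians of the same sign, with 1 exception. No such gene was kept from ZNF302 to ZNF792. Between the ends of the last cluster 16 of 20 such genes were higher in shY2-2 (median 0.25). Some of these 20 overlap members on the same strand, among them CCDC106, AC003002.1, AC020915.2, AC020915.6 and AC010326.3. By the filter AC020915.2 and AC010326.3 could only be higher, and AC020915.6 only lower. Within the cluster from ZNF565 to ZNF573 all 3 such genes were lower (median -0.44). The middle one of these was ZFP14, itself a C2H2 zinc finger gene, which was kept through shNC alone. From ZNF175 to ZNF331 4 of 5 such genes were lower (median -0.21). These 5 include TPM3P9 and TPM3P6, which overlap the members ZNF761 and ZNF813 on the same strand. From ZNF575 to ZNF296 12 of 19 such genes were lower (median -0.14). The exception was the cluster from ZNF653 to ZNF791, where 2 of 3 were higher. In smaller groups not given above, signs also differed. From ZNF724 to ZNF254 the median was -0.14 for 1 member and 0.34 for 3 other genes. From ZNF574 to ZNF526 it was 0.08 for 2 members and -0.71 for 1 other gene. Without the members that overlap another gene on the same strand, 10 of 17 were higher in the last cluster, with a median of 0.16. These 17 include ZNF256, ZNF837 and ZNF324B, which could only be higher by the filter, and ZNF329, which could only be lower.

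The last cluster differed from the others more among the KRAB genes than among the rest. Of the KRAB genes kept, 14 of 19 were higher in shY2-2 in the last cluster (median log2 ratio 0.16), and 11 of 41 in all other clusters (median -0.19). Of the genes without a KRAB match, 7 of 12 in the last cluster (median 0.21) and 9 of 14 elsewhere (median 0.05) were higher. These counts, and those by base composition below, include the members kept through 1 input library alone, whose direction was fixed by the filter. The clusters were compared after these values were seen, and with 1 library per condition the difference was not tested.

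Base composition moved with these ratios. Over genes that are neither ZNF genes nor on chromosome 19, the median log2 ratio was -0.20 for transcripts with less than 40% G and C, -0.09 from 40 to 45%, 0.03 from 45 to 50%, 0.06 from 50 to 55%, 0.11 from 55 to 60% and 0.09 above. The members followed the same order up to 60%, with medians of -0.27 over 15 genes, -0.14 over 30, 0.05 over 16, 0.13 over 4 and 0.58 over 5, and 0.19 over the 16 genes above. Of the 5 genes from 55 to 60%, ZNF71, ZNF324B and ZNF324 could only be higher by the filter, and their median is the value of ZNF324. Below 40%, ZNF461, ZNF569, ZNF780B and ZNF230 could only be lower, and from 40 to 45% so could ZNF181, ZNF564, ZNF226, ZNF112 and ZNF160. From 45 to 50%, ZNF77, ZNF114 and ZNF256 could only be higher and ZNF329 only lower. Above 60%, ZNF837 could only be higher. The KRAB genes of the last cluster were richer in G and C (median 46.3%) than those elsewhere (42.6%). Below 45%, 4 of 7 KRAB genes of the last cluster were higher in shY2-2 (median 0.08) and 6 of 32 elsewhere (median -0.28). From 45% upwards, 10 of 12 in the last cluster (median 0.29) and 5 of 9 elsewhere (median 0.07) were higher. The part of base composition in the cluster values was not tested further.

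m6A peaks had been called by the authors for each condition from its IP and input libraries. The members held 259 peaks in 108 genes in shNC and, by coincidence, 259 peaks in 120 genes in shY2-2. A peak was present in both conditions in 91 members, in shNC alone in 17, in shY2-2 alone in 29, and in neither in 85. The number of peaks per member reached 6 in each condition. None of the 8 members with no coding transcript had a peak. The 7 members with most peaks, 6 of them tied after ZNF226, were ZNF146 (5 peaks in shNC and 4 in shY2-2), ZNF226 (5 and 6), ZNF227 (5 and 4), ZNF444 (5 and 4), ZNF507 (6 and 3), ZNF581 (4 and 5) and ZNF780A (6 and 3).

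At low levels, peaks were found in a larger share of the members than of all genes. Of the members kept, 72.1% had a peak in both conditions, against 72.7% of all genes kept. Below an FPKM of 1, 21.3% of 136 members had a peak in both, as did 28.2% of the ZNF genes on other chromosomes, against 6.95% of all genes below this level. For a highest FPKM of 1 to 5 the shares were 68.5%, 74.1% and 57.3%. ZNF714, with 12 fingers and an FPKM of only 0.388 and 0.539, held 4 peaks in each condition. The share was thus higher than over all genes at low levels, in ZNF genes on and off chromosome 19. All genes at these levels include noncoding ones, such as Y_RNA, whereas most members are coding. Gene type, transcript length and level within each range were not matched, and their part in these shares was not tested.

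**Figure D3:**
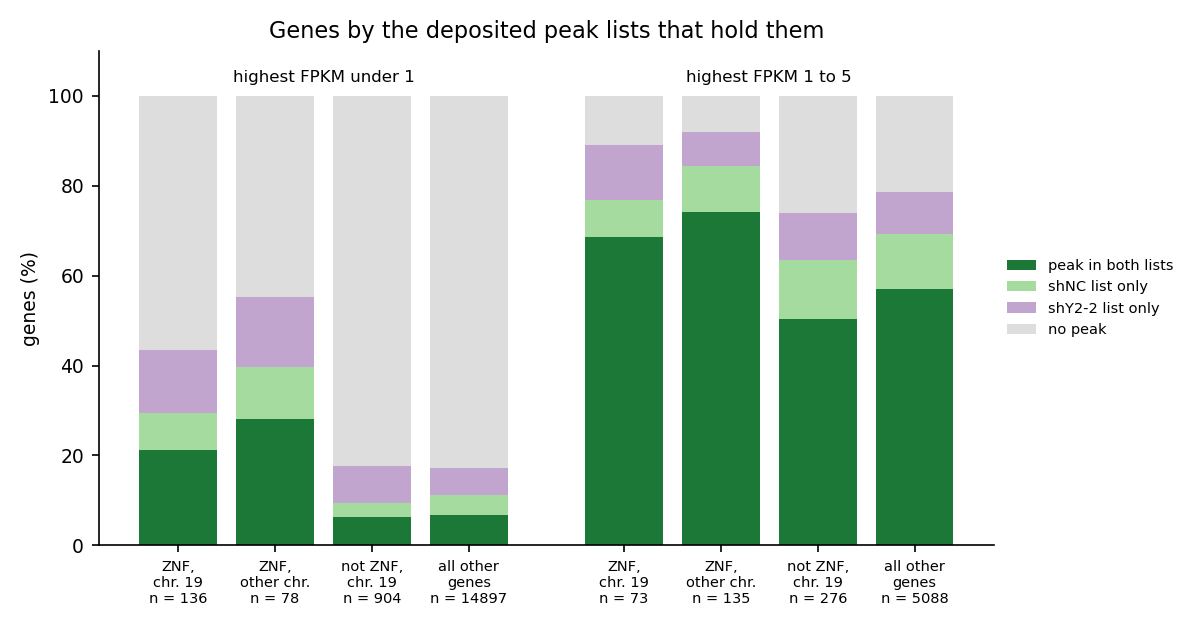
Share of genes (y axis, percent) with a peak in both lists, in 1 list or in none, for genes with a highest FPKM under 1 (left) and from 1 to under 5 (right). Each bar is a set of genes with its number below, namely ZNF genes on chromosome 19, ZNF genes on other chromosomes, other genes on chromosome 19 and all other genes. Under 1, the shares with a peak in both lists are 21.3%, 28.2%, 6.31% and 6.75% in this order.

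The fold enrichment of IP over input that the peak caller gave was higher in the members than over all peaks, while fewer of their peaks passed a limit on the false discovery rate. The median fold enrichment was 2.99 in shNC and 2.81 in shY2-2, compared with 2.17 and 2.26 over all peaks. A fold enrichment of at least 4 was given to 36.7% and 33.6% of the members' peaks, and to 18.97% and 22.9% of all peaks. A false discovery rate of at most 0.05 was reached by 35.1% and 27.8% of the members' peaks, and by 56.4% and 52.1% of all peaks. The low level of the members stands beside these values, and its part in them was not tested. Of the 12 peaks with a fold enrichment of at least 10 in each list, 3 in shNC shared the value 14.5 and 3 in shY2-2 the value 12.7, and the 12 held 7 different values in either list.

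Of the members' shNC peaks 115 (44.4%, 95% Wilson interval 38.5 to 50.5) overlapped a shY2-2 peak by at least 1 nt on the same strand, and of the shY2-2 peaks 124 (47.9%, 41.9 to 54.0) overlapped a shNC peak. Over all peaks these shares were 55.9% and 65.4%, and in ZNF genes on other chromosomes 46.7% and 56.0%. With both lists limited to a false discovery rate of at most 0.001, 61.3% and 65.5% of the members' remaining peaks overlapped. The intervals cover the counting of peaks only. The overlaps made 136 pairs in 65 genes. The fold enrichment was higher in shY2-2 in 63 pairs and lower in 72, with a median ratio of 0.948, and it differed by more than 2-fold in 25 pairs, 8 higher and 17 lower.

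**Figure D4:**
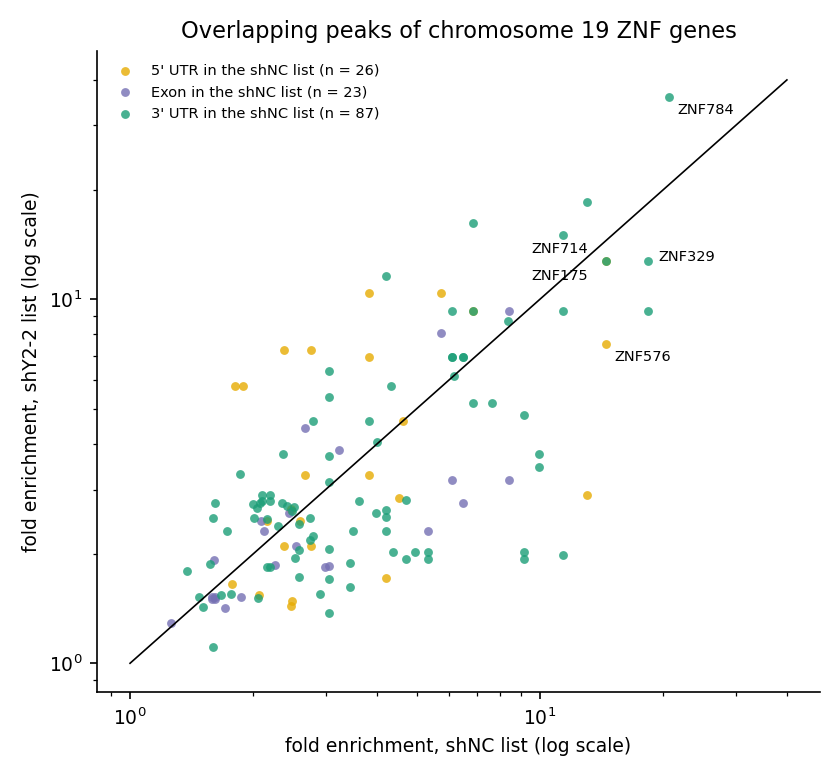
Fold enrichment of IP over input in the shNC list (x axis) and the shY2-2 list (y axis) for the 136 pairs of overlapping peaks in zinc finger genes of chromosome 19, on log axes, coloured by the authors' location in the shNC list. The line marks equal values. ZNF784 stands highest with 20.6 and 35.8, and 29 pairs reach a fold enrichment of 4 in both lists.

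ZNF784, a gene with 6 fingers and no KRAB match, held the peak with the highest enrichment among the members in both lists. Its FPKM was 2.99 in shNC and 4.51 in shY2-2. The single peak of each condition spanned the stop codon, chr19:55621547-55621875 in shNC and chr19:55621547-55621934 in shY2-2, with a fold enrichment of 20.6 and 35.8 and a false discovery rate of 1.738e-05 and 3.162e-08. The GGAC sites printed above place the A of their core 58 nt before and 15 nt after the last base of the stop codon. The central 15 nt of both sites occur in no other of 62700 reference transcripts.

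The next 4 genes by enrichment in shNC among overlapping peaks had these peaks outside the stop codon. By enrichment in shY2-2, ZNF101 came second, with 13 in shNC and 18.5 in shY2-2. ZNF614 had a higher value in shNC, 15.3, but no peak in shY2-2. ZNF329, with 12 fingers, had a 3′ UTR peak of 18.3 in shNC and 12.7 in shY2-2, and the site printed above lies 843 nt past the stop codon within both. ZNF714 had a 3′ UTR peak of 14.5 and 12.7, in which the only GGAC sits in a stretch whose central 15 nt occur in 62 transcripts. ZNF175, known as a suppressor of HIV-1 transcription, had a peak of 14.5 and 12.7 in the 5′ UTR, and ZNF576 one of 14.5 and 7.52 in the 5′ UTR. The FPKM of these genes ranged from 0.388 (ZNF714) to 4.44 (ZNF576) in shNC.

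The 3 genes with the largest log2 ratios all carried peaks in both conditions. ZNF71 had overlapping peaks at its stop codon with a fold enrichment of 6.17 in shNC and 6.15 in shY2-2, and overlapping peaks before its fingers of 4.53 and 2.85. ZNF324B had overlapping peaks at its stop codon of 2.58 and 1.73. ZNF302 had 3 overlapping pairs, with values of 1.76 and 1.55, 2.05 and 1.51, and 2.52 and 1.95. Enrichment was thus at or below its shNC value in shY2-2 in each of these pairs, whichever way the FPKM differed.

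Among the members with the highest level, enrichments varied widely. ZNF146 had its largest value of 2.75 in the 3′ UTR in shNC and 5.78 in the 5′ UTR in shY2-2. ZNF581 had a stop codon peak of 8.34 and 8.71, and ZNF787 one of 3.82 and 4.63. Overlapping peaks of 5.72 in shNC and 10.4 in shY2-2 were annotated to the 5′ UTR of ZNF581. Both lay wholly off its canonical transcript and within the bounds of ZNF580. ZNF574 had 3.61 in shNC and 2.79 in shY2-2 at its 3′ end. ZNF428, the second most abundant member, had no peak in the shNC list and a stop codon peak of 4.73 in the shY2-2 list, at FPKM of 16.05 and 17.35.

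Peaks and ratios were set side by side for the 86 members kept. The 62 with peaks in both conditions had a median log2 ratio of -0.03 (28 higher, 34 lower). All 6 with peaks in shNC alone were higher in shY2-2 (median 0.22), 8 of the 10 with peaks in shY2-2 alone were lower (median -0.09), and 5 of the 8 with none were higher (median 0.09). Over all genes kept, the medians of these groups were 0.02, -0.08, -0.04 and -0.02. Of the 62, ZNF71, ZNF256, ZNF324B and ZNF324 could only be higher by the filter. ZNF461, ZNF569, ZNF780B, ZNF230, ZNF226, ZNF112, ZNF160 and ZNF329, also of the 62, could only be lower. Of the 6 genes, ZNF77, ZNF114 and ZNF837 were kept through the shY2-2 library alone and could only be higher. ZNF181, of the 10, and ZNF564, of the 8, were kept through shNC alone and could only be lower. The input library enters both the ratio and the peak call, so the 2 are not independent, and the groups of 6, 10 and 8 genes are small.

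The authors' annotation placed 56.8% of the members' peaks in the 3′ UTR in each condition, 29.0% and 25.5% in exons, and 14.3% and 17.8% in the 5′ UTR. In the canonical reference transcript, by contrast, 137 shNC peaks and 121 shY2-2 peaks touched the coding sequence and 106 and 117 the 3′ UTR. The difference shows in ZNF302, whose peaks at chr19:34684361-34684720 and chr19:34684870-34685049 were annotated to the 3′ UTR and lie wholly in the coding sequence of the canonical transcript. The stop codon was covered by 36 (13.9%) and 28 (10.8%) of the peaks, against 16.1% and 15.4% of the peaks of genes that are neither ZNF genes nor on chromosome 19.

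**Figure D5:**
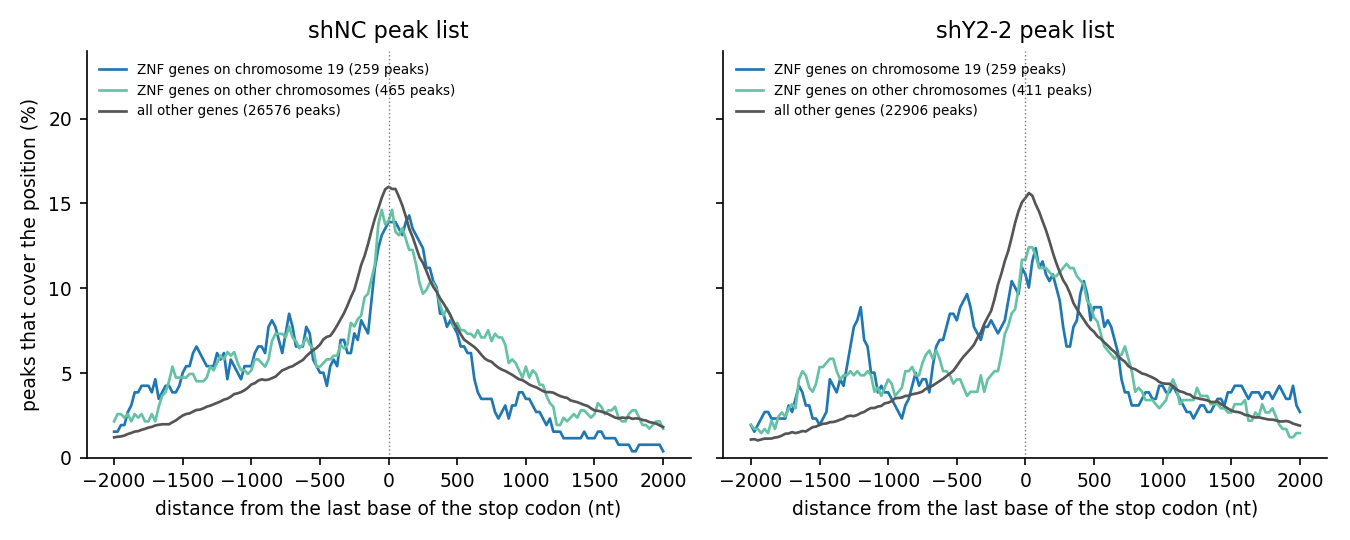
Share of peaks (y axis, percent) that cover each position around the last base of the stop codon (x axis, nt, every 25 nt along the canonical transcript) in the shNC list (left) and the shY2-2 list (right), for ZNF genes on chromosome 19, ZNF genes on other chromosomes and all other genes. The share for the chromosome 19 ZNF genes is highest 150 nt past the stop codon in shNC (14.3%) and 75 nt past it in shY2-2 (12.4%), against 15.98% and 15.6% at 0 and 25 nt for all other genes.

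Peaks also lay in the long finger exon. The finger array was touched by 89 shNC peaks (34.4%) and 81 shY2-2 peaks (31.3%), and 51 and 45 peaks lay wholly within it. Of the peak length on canonical transcripts 29.9% fell in the fingers in shNC and 24.6% in shY2-2, where fingers make up 26.0% and 27.1% of the length of those transcripts. The 3′ UTR took 45.1% and 54.7% of the peak length, and 52.5% and 50.8% of the transcripts. Fingers were therefore covered about as much as their length, a little above it in shNC and a little below it in shY2-2.

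Of the 1449 linkers of the form TGEKP or TGERP in the members, 1018 (70.3%) held the m6A consensus DRACH (any base but C, then a purine, A, C, and any base but G) on the transcript strand, 950 of them or 65.6% as AAACC. These letters arise where the residues K and P are spelled by the codons AAA and CC plus any base. The commonest spelling, in 235 linkers, was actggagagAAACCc, with the match in capitals. Peaks covered 82 linkers (5.66%) in shNC and 97 (6.69%) in shY2-2, 21 of them in both, among them those of ZNF57, ZNF146 and ZNF331 printed above. The peaks around these 3 had a fold enrichment of 6.49, 1.26 and 1.60 in shNC and 2.75, 1.29 and 1.92 in shY2-2. For comparison, peaks held 18497 nt of finger sequence in shNC and 16363 nt in shY2-2, of 241521 nt in all members.

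GGAC was rare in the fingers, also within peaks. Finger sequence inside peaks held 2.00 GGAC per kb in shNC and 1.96 in shY2-2, against 1.46 per kb of all finger sequence of the members. For the 3′ UTR the values were 3.58 and 3.02 in peaks and 1.89 in all 3′ UTR sequence, and for whole transcripts 3.49 and 3.27 in peaks and 2.5 in all. DRACH differed less, with 20.7 and 21.0 per kb in peaks and 19.8 in all. Of all stretches of 27 nt in the members' transcripts 5.78% held GGAC and 39.0% held DRACH, and a match is a description of letters and not a methylated site. In finger sequence inside peaks, 14.4% of the DRACH matches in shNC and 20.1% in shY2-2 lay in a linker. Over all finger sequence of the members 993 of 4632 did, so linkers were no more frequent among the matches inside peaks.

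The co-repressors on which KRAB zinc fingers act ranged from ATF7IP2, with an FPKM of 0.885 in shNC and 0.727 in shY2-2, to TRIM28. TRIM28 had an FPKM of 83.4 in shNC and 87.9 in shY2-2, and SETDB1 5.07 and 5.64. Of 27 co-repressor genes listed for this comparison 26 were in the table and 25 were kept. Their median log2 ratio was 0.02, with 14 higher and 11 lower, from -0.83 to 0.55, and none passed 1 or -1. Of the 26, 25 had peaks in both lists, and the exception was TRIM33, with no peak in shNC and 1 in shY2-2.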

How the data were processed

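RNA-seq (input) and m6A-seq (IP over input) were performed on A549 cells with 1 library of each kind per condition. Reads were mapped by the authors with HISAT2 (GRCh38), who calculated the deposited FPKM values per gene from the input libraries with StringTie, called peaks with exomePeak and annotated them with ChIPseeker. The deposited peak lists give a p-value, the log10 of the FDR (used here as a score) and, as a linear ratio between IP and input, the fold enrichment of each peak. Versions and the annotation release are not given in the sources used here, and the depth behind FPKM values and peaks is unknown. No deposited p-value exceeds 0.049.

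Conditions follow the sample labels. Ratios used a pseudocount of 1 and were kept where either input library reached an FPKM of 1. FPKM values are not counts, so no count test was run, and with 1 library per condition no test was possible. Clusters were cut at gaps of more than 1 Mb. Peaks were compared by overlap of exonic blocks on the same strand. Coding sequences, UTRs, base composition and sequences came from GENCODE release 44 (GRCh38, canonical transcripts), which matched 12202 of the 12268 genes kept. Fingers were found in translated coding sequences as C, 2 to 4 residues, C, 12 residues, H, 3 to 5 residues, H, and KRAB boxes by short patterns of their conserved residues. Motifs were searched on the transcript strand only.

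The members and lists were chosen with earlier results of these data known. The members named are the 5 with the highest mean FPKM, those kept with a log2 ratio above 1 or below -1, 5 of the 7 with most peaks (ZNF226 and, of 6 tied, the first 4 by symbol), the 5 with the highest fold enrichment in shNC among overlapping peaks, the 3 highest and 3 lowest ratios among members that reached an FPKM of 5 in each library, and ZNF91, ZNF93, ZNF146, ZNF224, ZNF274, ZNF331, ZNF382, ZNF568 and ZNF611 for their known roles. YTHDF2, TRIM28 and SETDB1 were also named. ZNF57, ZNF324, ZNF473, ZNF446, the genes at the ends of clusters and overlapping neighbours were chosen with their values in view, as were ZNF101, ZNF614, ZNF780A and ATF7IP2. So were ZFP14 and the members named as kept through 1 input library alone. The alternatives changed the pseudocount or the FPKM filter. Others were removal of overlapping members, another threshold, stricter peak filters, a larger overlap and location in the reference transcript. The ratio, the overlap of peaks, the mapping of positions and the finger pattern were tested on simulated data. For the ratio these data had no noise and only genes with an FPKM of at least 5. The KRAB and linker patterns, clusters, base composition and motif counts were not tested in this way. The software was NumPy 2.4.6, pandas 2.3.3 and matplotlib 3.10.9 on Python 3.11.15.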

Additional observations from a re-analysis of the deposited data

How the results depend on the processing

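No paired analysis was possible because each condition has 1 library of each kind. Of 74 values recomputed under alternatives, 30 stayed within the limit set for them, and 44 moved. The median log2 ratio of the members, -0.01, stayed at or below 0 in 5 of its 6 alternatives and was 0.02 with an FPKM of at least 5 in either library. Counts of members above 1 and below -1 rest on 1 or 2 genes. Above 1 there were 4 members with a pseudocount of 0.1, 0 where each library had to reach an FPKM of 1, 0 with an FPKM of at least 5, and 1 without members that overlap another gene on the same strand. Below -1 there were 3 with a pseudocount of 0.1 and 3 past a 1.5-fold limit. Members higher in shY2-2 numbered 88 over all members with an FPKM above 0, 7 with an FPKM of at least 5 and 25 without overlapping members. Over all 222 members the split was therefore 88 higher and 134 lower, less even than among the 86 kept.

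Stricter peak filters left fewer peaks. Each filter was applied to both lists, so the overlaps count only partners that also passed it. A fold enrichment of at least 4 left 95 shNC and 87 shY2-2 peaks in 69 and 64 members, 35 in both, with 27.4% and 29.9% overlapping the other list, 23.2% and 14.9% in exons and 66.7% of shY2-2 peaks in the 3′ UTR. An FDR of at most 0.05 left 91 and 72 peaks in 56 and 47 members, 31 in both, with 58.3% of shY2-2 peaks overlapping. An FDR of at most 0.001 left 31 and 29 peaks in 22 and 18 members, 12 in both, with 61.3% and 65.5% overlapping, so that most peaks recurred under this filter, 12.9% and 10.3% in exons and 25.8% and 31.0% in the 5′ UTR. An overlap of at least 50% of the shorter peak lowered the overlapping shares to 38.2% and 41.3%. By the region of the reference transcript that held most of a peak, 36.3% and 40.2% lay in the 3′ UTR, 40.2% and 35.5% in the coding sequence and 5.79% and 6.95% in the 5′ UTR, so the predominance of the 3′ UTR in shNC rests on the authors' annotation. The cause of the other shifts was not tested.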

Other observations

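Other C2H2 zinc finger genes of chromosome 19, whose symbols lie outside the ZNF series, showed levels like those of the ZNF genes. Of 21 such genes listed, 16 were in the table and 6 reached an FPKM of 1, 3 of them higher and 3 lower in shY2-2. KLF16 (6.75 in shNC and 7.48 in shY2-2), ZBTB45 (6.66 and 4.81) and ZBTB7A (5.64 and 8.64) were the highest, and PEG3, an imprinted gene, was at 0.0104 and 0.00418. ZFP30, a KRAB gene, held 5 peaks in shNC and 2 in shY2-2 at an FPKM of 0.403 and 0.364.

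ZNF8, a KRAB gene of the last cluster with an FPKM of 1.21 in shNC and 2.06 in shY2-2, overlaps 2 genes on the same strand whose values changed places between the libraries. AC020915.2 had 0.495 in shNC and 7.17 in shY2-2, and AC020915.6 had 3.24 and 0.00824. These genes were picked after their values were seen, how fragments were divided among the 3 genes is not known, and its part in these values was not tested.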
